A study of Mus musculus with 16 samples.

Results

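The VEGF ligands and receptors were taken as 9 genes, the ligands Vegfa, Vegfb, Vegfc and Pgf, the receptors Flt1, Kdr and Flt4, and the co-receptors Nrp1 and Nrp2. Every probe that the scanner output named after a member, by its current or older symbol, was kept whatever its values. This gave 24 of the 43426 probes on the array, for 9 of the 18470 named genes with a tested probe.

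The samples were whole retinas of C57Bl6 mice, injected into the vitreous with a protein and collected 24 h later. Pups 8 days old received 4 µg of hFc (control, 4 arrays), 4 µg of Dll4-Fc (4 arrays) or 1 µg of VEGF-A (5 arrays). The remaining group received VEGF Trap (3 arrays), for which the labels used here give no dose or age. No genetic change is named for any group. VEGF-A is the main ligand of blood vessel growth, and VEGF Trap is a soluble decoy built from parts of the receptors Flt1 and Kdr that binds VEGF-A, VEGF-B and PlGF. Dll4-Fc carries part of the Notch ligand Dll4 joined to an antibody Fc part, and hFc is the Fc part alone. The injected agents are proteins, so the arrays read the RNA of the retina and not the agents. Whether the arrays of a group hold RNA of different animals is not stated, and a p-value here weighs a difference against the spread of these samples, which may be technical.

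VEGF-A signals mainly through Kdr (VEGFR2) on endothelial cells. Flt1 (VEGFR1) binds VEGF-A tightly but signals weakly and acts in large part as a sink, and it is also made as a truncated transcript coding for a secreted receptor. Pgf and Vegfb bind Flt1, Vegfc binds Flt4 (VEGFR3) and Kdr, and the neuropilins present VEGF to Kdr. In the growing retina Vegfa is made by astrocytes and other retinal cells under control of oxygen through HIF, and in the retina Kdr is found on vessels and also on neural and glial cells.

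RNA of each sample, labelled with Cy3, was hybridised against a common reference pooled from equal RNA of the experiment's samples, labelled with Cy5. Values below are log2 sample over reference, so a difference of 1 between groups is a doubling. They compare samples at the same probe, and levels of different probes are not set against each other. Between 84.9% and 91% of spots on an array were well above background in Cy3 and no spot was saturated. Rod photoreceptor markers were bright on every array, with a median Cy3 signal of 31440 to 80980 over the 8 genes, while lens and pigment epithelium markers varied within every group (mean log2 from -2.54 to 1.32 over the arrays). Dyes were not swapped. The 4 hFc arrays filled slide 1 and the 4 Dll4-Fc arrays slide 2, so slide and treatment cannot be told apart in any comparison with these groups. VEGF-A and VEGF Trap shared slides 3 and 4, and can be compared within each, though slide 4 held 1 VEGF Trap array. The hFc arrays had 2350 to 2599 spots marked as outliers by the scanner software, against 12 to 213 on the others. Marked spots were left out, which takes away 7 of the values given below, all in hFc. In these bulk samples, fewer cells of a type and less RNA per cell cannot be told apart.

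The probes are 60 bases long, and those of a gene do not all read the same part of it. The scanner output placed Flt1 probe A_52_P307922 76 kb upstream of A_51_P398723, which lies towards the 3′ end of the gene, and the lists of cDNA records it gave for the probes had 0 records in common. The first 30 bases of these Flt1 probes are shown because the probes gave different values, beside a pair of Nrp1 probes that are shown whole. All are in lower case and as deposited by the authors.
Flt1 A_52_P307922: caccaagctttgatggcattcaaagatgtc
Flt1 A_51_P398723: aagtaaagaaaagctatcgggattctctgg
Nrp1 A_52_P371237: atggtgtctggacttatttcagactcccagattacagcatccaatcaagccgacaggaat
Nrp1 A_66_P107633: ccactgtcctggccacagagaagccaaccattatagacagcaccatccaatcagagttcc

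Against hFc, Vegfa RNA was lower and Flt4, Pgf and Nrp1 were higher after VEGF-A, and Vegfa was higher after VEGF Trap. The hFc arrays filled their own slide, so slide and treatment cannot be told apart here. Both VEGF Trap calls of Vegfa were lost without VEGF Trap array 1. Flt1 was called at A_52_P307922 only. Its 3′-end probe A_51_P398723 had 1 unmarked hFc spot, and was called with marked spots kept (0.75, adjusted p = 0.00211). Of the 24 probes, 22 were well above background on at least 3 arrays and were tested with all others, by limma with Benjamini-Hochberg adjustment over all probes and a threshold of 0.05. Against hFc, VEGF-A raised 8 of the 22 and lowered 4, or 54.5% of them, where 8.99% of all probes were called (5.68% rose and 3.3% fell). Read by gene, counting a gene when any of its probes was called, 5 rose, 2 fell and Vegfc and Kdr did not pass. Of all genes, each read at its brightest probe only, 10.9% were called (6.68% rose and 4.22% fell). Flt1 was not called at its brightest probe, A_51_P398723 (adjusted p = 0.132). VEGF Trap raised 2 of the 22, both of Vegfa, or 9.09%, where 2.69% of all probes were called (0.903% rose and 1.79% fell). VEGF-A against VEGF Trap gave 12 probes higher and 4 lower in VEGF-A, or 72.7%, beside 16.9% of all probes (9.76% higher and 7.11% lower), and 1 of the 12 higher was near background. Dll4-Fc against hFc called 0 of the 22 in limma, with 7 at an unadjusted p under 0.05, where 4.02% of all probes were called (2.65% rose and 1.37% fell). With normexp background correction and loess normalization 1 member probe was called, Kdr A_66_P100674. The 3 comparisons with hFc share the same 4 control arrays.

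**Figure D1:**
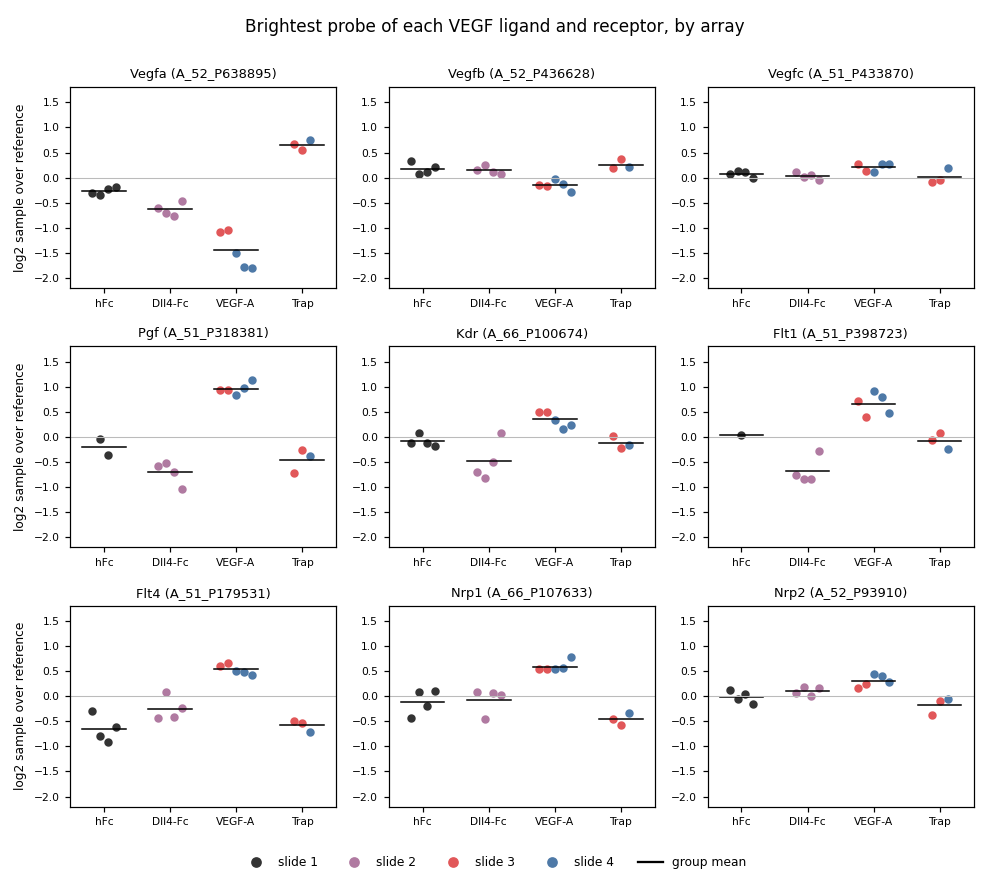
Log2 sample over reference (vertical axis) of the brightest tested probe of each of the 9 genes, with a point for each array, coloured by slide, and a line at each group's mean. Vegfa was lowest in VEGF-A and highest in VEGF Trap, while Pgf, Flt4 and Nrp1 were highest in VEGF-A. Flt1 has 1 hFc point and Pgf has 2, because the other hFc spots were marked as outliers.

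Among the ligands, Vegfa changed in opposite directions after its protein and after the decoy. At its brightest probe, A_52_P638895, the 4 hFc arrays gave -0.30, -0.34, -0.22 and -0.18, and the 4 Dll4-Fc arrays gave -0.60, -0.69, -0.76 and -0.46. The 5 VEGF-A arrays gave -1.09, -1.05, -1.49, -1.78 and -1.80, and the 3 VEGF Trap arrays 0.68, 0.55 and 0.75. No pair of groups overlapped, and the level went up from VEGF-A through Dll4-Fc and hFc to VEGF Trap. Vegfa was 2.27-fold lower in VEGF-A than in hFc (difference -1.18, SE 0.15, adjusted p = 4.95e-05) and 1.89-fold higher in VEGF Trap (0.92, SE 0.17, adjusted p = 0.0105). The neighbours Dll4-Fc and hFc did not differ by the test (-0.37, 95% interval -0.70 to -0.04, adjusted p = 0.315).

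At both other Vegfa probes the VEGF-A arrays were also lowest and the VEGF Trap arrays highest. At A_51_P482552, 3 hFc arrays lay at -0.15 to -0.14 and hFc array 4 at 0.28. The VEGF-A arrays lay between -1.95 and -0.85, and the VEGF Trap arrays at 1.18, 0.88 and 1.34. VEGF-A was 2.54-fold below hFc there (-1.34, SE 0.21, adjusted p = 0.000443) and VEGF Trap 2.24-fold above it (1.17, SE 0.24, adjusted p = 0.0202). At A_52_P249424, only 2 hFc arrays had unmarked spots (-0.36 and 0.32). VEGF-A was lower by the test (-1.36, adjusted p = 0.00867), while the VEGF Trap difference of 1.08 was not called (adjusted p = 0.0877). With the marked spots kept it was called (0.98, adjusted p = 0.0485). The VEGF Trap calls rest on 3 arrays: both were lost without VEGF Trap array 1 (adjusted p = 0.0975 at A_51_P482552 and 0.0586 at A_52_P638895), and that at A_51_P482552 also without VEGF Trap array 3 (0.0802) or without hFc array 2 or 3 (0.0561 and 0.0567). With hFc arrays 1 and 2 averaged, the VEGF Trap call at A_51_P482552 was lost as well (adjusted p = 0.0508). The VEGF-A call at A_52_P249424 was lost without hFc array 3 (adjusted p = 0.132).

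VEGF-A and VEGF Trap differed 4.29-fold at A_52_P638895 (-2.10, SE 0.16, adjusted p = 1.72e-07). Within slide 3 the difference was -1.68 and within slide 4 it was -2.44. The VEGF-A arrays of slide 3 (-1.09 and -1.05) lay above those of slide 4 (-1.49, -1.78 and -1.80), and against hFc the fall was -0.81 with the slide 3 arrays alone and -1.43 with those of slide 4. All 3 Vegfa probes were called within slide 3. In slide 4, with 1 VEGF Trap array, only the size of the difference is given.

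Pgf, the ligand that binds Flt1 and not Kdr, rose after VEGF-A. Its only probe, A_51_P318381, gave 0.93, 0.94, 0.84, 0.98 and 1.13 in VEGF-A and -0.04 and -0.37 on the 2 hFc arrays with unmarked spots. The VEGF Trap arrays gave -0.72, -0.27 and -0.37, and the Dll4-Fc arrays -0.58, -0.51, -0.69 and -1.05. The VEGF-A arrays lay above all others. Pgf was 2.25-fold higher than in hFc (1.17, SE 0.16, adjusted p = 0.00031) and 2.67-fold higher than in VEGF Trap (1.42, SE 0.14, adjusted p = 1.1e-05). The Dll4-Fc arrays lay below the hFc arrays without a call (-0.50, adjusted p = 0.164), and VEGF Trap overlapped hFc (-0.25, adjusted p = 0.461).

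Vegfb, another ligand of Flt1, fell at 1 probe, and Vegfc, the lymphatic growth factor, was not called. At the brighter Vegfb probe, A_52_P436628, hFc gave 0.07 to 0.32 and VEGF-A -0.29 to -0.02, a 1.25-fold fall (-0.32, SE 0.08, adjusted p = 0.0148) that was lost without hFc array 1 (adjusted p = 0.0551). The other probe, A_51_P458168, showed no call for VEGF-A against hFc (-0.11, 95% interval -0.35 to 0.13, adjusted p = 0.635), so the call holds for 1 of its 2 probes. Against VEGF Trap, A_52_P436628 was lower in VEGF-A by limma (-0.40, adjusted p = 0.00408). A_51_P458168 was not called there (-0.37, adjusted p = 0.0553), but was with normexp and loess (-0.35, adjusted p = 0.0426). Vegfc lay between -0.08 and 0.28 on all 16 arrays. Its VEGF-A and hFc groups overlapped and differed by 0.14 (95% interval -0.02 to 0.29, adjusted p = 0.283).

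Among the receptors, the Flt1 probes differed. At A_52_P307922, upstream, hFc gave -0.84, -1.06, -0.93 and -0.88, Dll4-Fc -0.94, -1.01, -1.18 and -0.79, VEGF-A 1.12, 1.18, 1.1, 1.31 and 1.35, and VEGF Trap -1.06, -1.24 and -1.58. VEGF-A stood alone above the other groups, and hFc and Dll4-Fc overlapped. Flt1 at this probe was 4.41-fold higher in VEGF-A than in hFc (2.14, SE 0.11, adjusted p = 2.4e-09) and 5.67-fold higher than in VEGF Trap (2.50, SE 0.12, adjusted p = 7.52e-10), with 2.3 within slide 3 and 2.83 within slide 4. The highest VEGF Trap array lay at the level of the lowest hFc array, and the difference was not called (-0.36, adjusted p = 0.124).

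At the 3′-end probe A_51_P398723, VEGF-A gave 0.72, 0.40, 0.91, 0.80 and 0.48, VEGF Trap -0.05, 0.07 and -0.24, and Dll4-Fc -0.75, -0.85, -0.84 and -0.28. Only 1 hFc array had an unmarked spot (0.03). Here all VEGF Trap arrays lay above the Dll4-Fc arrays, whereas at the upstream probe these groups overlapped and the VEGF Trap mean was the lower. VEGF-A was 1.66-fold above VEGF Trap (0.73, SE 0.16, adjusted p = 0.00702), though not within slide 3 alone (0.55, adjusted p = 0.165). The differences from hFc rest on that array and were not called (VEGF-A 0.63, adjusted p = 0.132, and Dll4-Fc -0.71, adjusted p = 0.181). With marked spots kept, both were called (VEGF-A 0.75, adjusted p = 0.00211, and Dll4-Fc -0.58, adjusted p = 0.0349).

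The gap between the Flt1 probes, upstream minus 3′ end on the same array, was 0.55 ± 0.28 in VEGF-A (SD, n = 5), -0.30 ± 0.16 in Dll4-Fc (n = 4) and -1.22 ± 0.18 in VEGF Trap (n = 3). The 3 groups did not overlap. VEGF-A exceeded VEGF Trap by 1.77 (exact two-sided permutation p = 0.0179, the smallest these group sizes allow) and Dll4-Fc by 0.85 (exact permutation p = 0.00794, also the smallest). Over the 12 such probe gaps tested in Flt1, Vegfa and Nrp1, both had an adjusted p of 0.0714, which misses the threshold. The probe pairs were not set before the values were known, so these p-values describe the gaps and are no independent evidence of a difference. The Vegfa gap between its probes did not pass in any comparison, the lowest exact permutation p being 0.196 for VEGF-A against VEGF Trap. The gap between the 2 Nrp1 probes shown above was 0.30 larger in VEGF-A than in hFc (exact permutation p = 0.0159, adjusted 0.0714). The files do not say which Flt1 transcript each probe reads.

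**Figure D2:**
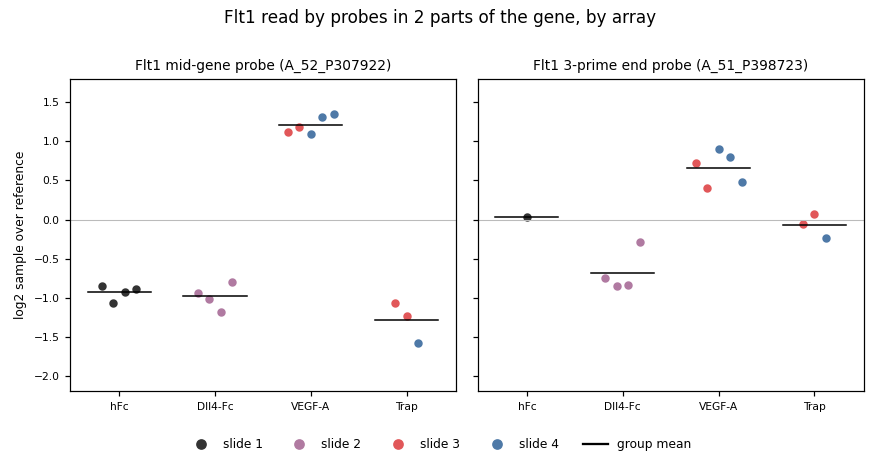
Log2 sample over reference (vertical axis) of Flt1 at the upstream probe, titled mid-gene (left), and at the 3′-end probe (right), with a point for each array, coloured by slide, and a line at the group mean. VEGF-A was above the other groups at both probes, while Dll4-Fc and VEGF Trap overlapped on the left and VEGF Trap lay above Dll4-Fc on the right.

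The 3 other Flt1 probes were dim. A_52_P405145 showed no call, with VEGF-A against hFc at 0.03 (95% interval -0.37 to 0.44, adjusted p = 0.946). A_52_P520859, 73 bases from the 3′-end probe, was well above background on 5 VEGF-A, 2 VEGF Trap, 1 hFc and 0 Dll4-Fc arrays. It is 1 of the 12 probes counted as higher in VEGF-A than in VEGF Trap (adjusted p = 0.0108). No size is given, because VEGF Trap array 3 was not well above background there. Without that array it was not called (adjusted p = 0.0772), nor with slide as a fixed block (0.0515), while with slide as a random block it was (0.0107). A_52_P650151 was not well above background on any array and was not tested.

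Kdr, the main signalling receptor, was not called against hFc. At its brightest probe, A_66_P100674, hFc gave -0.12, 0.08, -0.11 and -0.19 and VEGF-A 0.50, 0.49, 0.35, 0.16 and 0.24, without overlap. The 1.35-fold difference was not called (0.43, 95% interval 0.12 to 0.75, adjusted p = 0.0891). In a fit of these 2 groups only, it was (adjusted p = 0.0261), as was A_51_P316553 (0.37, adjusted p = 0.0226). The other 2 tested probes gave 0.30 and 0.37 against hFc. Against VEGF Trap they were called (A_51_P316551 0.58, adjusted p = 0.0196, and A_51_P316553 0.56, adjusted p = 0.0141) and A_66_P100674 was not (0.47, adjusted p = 0.0602). Both calls were lost without VEGF Trap array 3 (adjusted p = 0.1 and 0.0756), and that at A_51_P316551 also without VEGF Trap array 2 (0.0524). Within a single slide the 3 differences were 0.41 to 0.65 and none was called. With both slides in a fit that had slide as a fixed block, all 3 were called (A_51_P316551 0.65, adjusted p = 0.0143, A_51_P316553 0.61, adjusted p = 0.00268, and A_66_P100674 0.52, adjusted p = 0.017). The other Kdr probe, A_52_P478193, was well above background on 1 array and was not tested.

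After Dll4-Fc, Kdr was low on 3 arrays and not on array 4. A_66_P100674 gave -0.71, -0.81, -0.50 and 0.07, and the other 2 tested probes gave -0.64 to -0.48 on arrays 1 to 3 and 0.11 and 0.16 on array 4. With normexp and loess, A_66_P100674 was called with array 4 included (-0.51, adjusted p = 0.0479). With the scanner ratios, the 3 differences from hFc were -0.36, -0.30 and -0.40 with no call (adjusted p from 0.258 to 0.38). Without Dll4-Fc array 4 all 3 were called (-0.52, -0.48 and -0.59, adjusted p from 0.00421 to 0.0274), and Flt1 at its 3′-end probe was called too (-0.84, adjusted p = 0.0423), though its hFc arm there is 1 array, assumed to vary like the other groups. This made 4 member probes called in place of 0. Array 4 was the array that stood apart at these probes, so the calls without it are not independent support for a fall. Müller glia markers moved on the same arrays: 7 of 10 fell against hFc and 0 rose (median -0.87), where 5.15% of all genes were called (3.47% rose and 1.68% fell), and their mean was -1.1, -1.16 and -1.26 on Dll4-Fc arrays 1 to 3 and -0.58 on array 4, against -0.02 to 0.05 in hFc. The part of the Müller glia markers in the Kdr values was not tested. Microglia and macrophage markers rose in the same comparison, 9 of 11, with 1 that fell, and their part was not tested either.

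Flt4, the receptor of Vegfc, was raised by VEGF-A. Its probe A_51_P179531 gave 0.61, 0.66, 0.50, 0.48 and 0.41 in VEGF-A, -0.29, -0.80, -0.92 and -0.62 in hFc, -0.44, 0.08, -0.41 and -0.24 in Dll4-Fc and -0.50, -0.53 and -0.72 in VEGF Trap. VEGF-A lay above the other 3 groups, and hFc overlapped both Dll4-Fc and VEGF Trap. It was 2.28-fold above hFc (1.19, SE 0.13, adjusted p = 1.27e-05) and 2.17-fold above VEGF Trap (1.12, SE 0.14, adjusted p = 4.82e-05), and 1.15 and 1.18 above it within slides 3 and 4. Dll4-Fc was 0.40 above hFc without a call (adjusted p = 0.163), and was called without hFc array 1 (0.53, adjusted p = 0.031).

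The co-receptor Nrp1 rose after VEGF-A at all 4 of its probes. At the brightest, A_66_P107633, VEGF-A gave 0.54, 0.53, 0.54, 0.56 and 0.78, hFc -0.43, 0.07, -0.19 and 0.10, Dll4-Fc 0.09, -0.45, 0.07 and 0.02, and VEGF Trap -0.46, -0.57 and -0.34. VEGF-A lay above every other array, and the hFc range held the Dll4-Fc arrays except 1. The difference from hFc was 1.62-fold (0.70, SE 0.13, adjusted p = 0.00222) and from VEGF Trap 2.06-fold (1.04, SE 0.14, adjusted p = 9.7e-05). The other 3 probes rose by 0.63 to 1.45 against hFc and by 0.63 to 1.29 against VEGF Trap, all called. The dim A_51_P469285 lost its call against VEGF Trap without VEGF Trap array 3 (1.03, adjusted p = 0.103) and within slide 3 (0.78, adjusted p = 0.37), and with normexp and loess its differences were 0.64 from hFc and 0.59 from VEGF Trap. Within slide 4, which holds 1 VEGF Trap array, A_52_P174942 (0.54, adjusted p = 0.0929) and A_52_P371237 (0.94, adjusted p = 0.116) were not called. Nrp2, the other neuropilin and a partner of Flt4, rose at 1 of its 3 probes. Its bright probe A_52_P93910 gave 0.16 to 0.44 in VEGF-A and -0.16 to 0.12 in hFc, a 1.25-fold rise (0.32, SE 0.09, adjusted p = 0.0361). That call was lost when any of 7 of the 9 arrays was left out (adjusted p up to 0.11). It was also lost with hFc arrays 1 and 2 averaged (0.0535). The difference from VEGF Trap at this probe was 0.48 (adjusted p = 0.00284). The 2 remaining probes, A_51_P473024 and A_52_P77732, were at or near background on most arrays and showed no call. The second was named Npn2, an older symbol of Nrp2, but was placed on chromosome 6, whereas RefSeq (GRCm38.p6) has Nrp2 on chromosome 1.

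**Figure D3:**
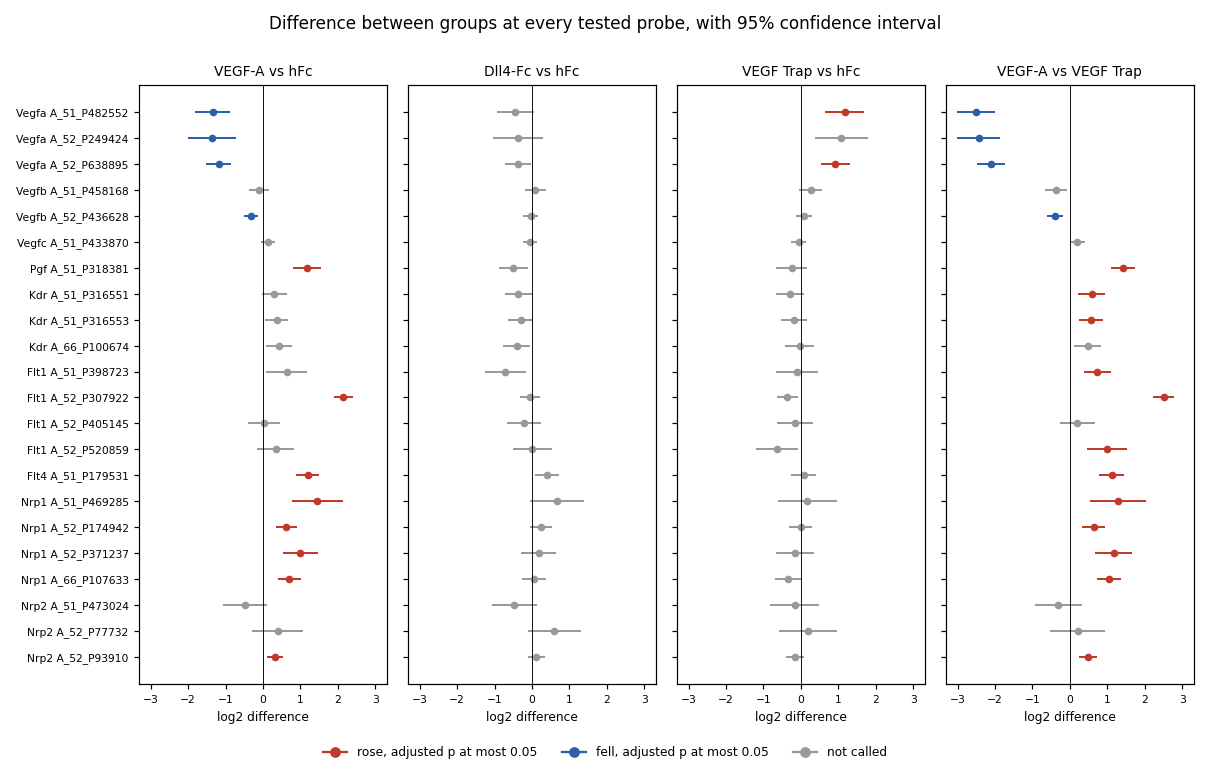
Difference between groups (horizontal axis, log2) with its 95% confidence interval for each of the 22 tested probes, in 4 comparisons. Red marks probes that rose and blue those that fell at an adjusted p of at most 0.05. All 3 Vegfa probes fell and all 4 Nrp1 probes rose after VEGF-A, and no probe was called after Dll4-Fc.

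Genes that work with the receptors were read from a list of 35 partners and signal relays, each at its brightest probe. This and the other gene lists were chosen with earlier results of these data known. They were read in the full fit only, and their counts were not checked under the alternatives. After VEGF-A 8 rose and 2 fell against hFc (median 0.04, beside -0.05 over all genes), and 10.9% of all genes were called (6.68% rose and 4.22% fell). The rises included Itgb3, an integrin subunit that pairs with Kdr (3.01, adjusted p = 8.11e-12), Plxnd1, a semaphorin receptor of vessels (1.65, adjusted p = 4.41e-08), Cdh5, the cadherin of endothelial junctions (1.07, adjusted p = 1.34e-05), and the semaphorin Sema3g (1.32, adjusted p = 2.23e-05). VEGF Trap against hFc called 1 of the 35, Cdh5, which fell by 0.59 (adjusted p = 0.0333) and is also on the pan-endothelial list. That share is near the 3.2% of all genes called (0.987% rose and 2.21% fell). In limma 10 of the 35 had an unadjusted p under 0.05 there. After Dll4-Fc 3 rose and 1 fell, beside 5.15% of all genes (3.47% rose and 1.68% fell). These were Sphk1, which makes sphingosine-1-phosphate and fell (-0.87, adjusted p = 1.13e-05), and Itgb3 (0.53), Nfatc1, a calcium-driven transcription factor (0.62), and the kinase Mapkapk2 (0.22), which rose.

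Genes of oxygen sensing, and HIF targets regulated by the same oxygen pathway as Vegfa, were read from a list of 20. VEGF-A lowered 7 and raised 0 against hFc (median -0.32), where 10.9% of all genes were called (6.68% rose and 4.22% fell). VEGF Trap raised 9 and lowered 0 (median 0.55), where 3.2% were called (0.987% rose and 2.21% fell). Dll4-Fc called 0 of the 20 in limma, with 7 at an unadjusted p under 0.05 (median 0.06). Of all genes, 5.15% were called there (3.47% rose and 1.68% fell). VEGF-A against VEGF Trap lowered 14 (median -0.85), where 20.7% of all genes were called (11.9% higher and 8.75% lower). Ndufa4l2, a mitochondrial protein induced by low oxygen, was lower after VEGF-A (-1.83, adjusted p = 8.25e-09) and higher after VEGF Trap (1.22, adjusted p = 0.000149). Bnip3, a mitophagy factor, was likewise lower (-1.19, adjusted p = 6.04e-06) and higher (1.03, adjusted p = 0.00135), and so was Pdk1, which holds pyruvate back from the mitochondria (-0.81, adjusted p = 0.000239, and 0.88, adjusted p = 0.00346). The mean of the 18 genes measured on every array was -0.16 to -0.05 in hFc, -0.09 to 0.15 in Dll4-Fc, -0.60 to -0.32 in VEGF-A and 0.40 to 0.53 in VEGF Trap.

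Endothelial markers moved with the receptors in the VEGF-A comparisons. Of 15 pan-endothelial genes tested against hFc, 12 rose and 1 fell after VEGF-A (median 1.18), where 10.9% of all genes were called. After VEGF Trap 14 fell (median -0.65, beside 3.2% of all genes called), and after Dll4-Fc 5 rose (median 0.23, beside 5.15%). All 16 tested were higher in VEGF-A than in VEGF Trap (median 1.70, beside 20.7%). Cd34 (2.07, adjusted p = 1.29e-09) and Mmrn2 (1.59, adjusted p = 2.4e-09), both surface or matrix proteins of endothelium, were among the rises after VEGF-A. The mean of the 13 genes measured on every array was -0.34 to -0.24 in hFc, -0.15 to 0.02 in Dll4-Fc, 0.54 to 0.67 in VEGF-A and -0.96 to -0.84 in VEGF Trap, and each of the 13 was above background in every group. After VEGF Trap no receptor or co-receptor probe was called against hFc by limma, beside 14 of 15 endothelial markers that fell. At an unadjusted p under 0.05 stood 6 of the 22 member probes: the 3 of Vegfa, all higher, and 3 that were lower, Flt1 A_52_P307922 (-0.36), the dim Flt1 A_52_P520859 and Nrp1 A_66_P107633 (-0.34). The Kdr probes differed from hFc by -0.29 to -0.04, the other Nrp1 probes by -0.16 to 0.17 and Flt4 by 0.07. The part of the endothelial markers in the receptor values was not tested.

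Pericyte and mural markers split after VEGF-A, with 4 of 10 that rose and 4 that fell against hFc, where 10.9% of all genes were called, and 4 fell after VEGF Trap, where 3.2% were. Retinal astrocyte markers showed 2 rises of 6 after VEGF-A and none after VEGF Trap in limma, with 2 at an unadjusted p under 0.05. Retinal ganglion cell markers had a median of -0.52 after VEGF-A with 1 of 10 called, a share near the 10.9% of all genes. Their mean was -0.88 and -0.77 on VEGF-A arrays 1 and 2, of slide 3, and -0.01, 0.02 and 0.15 on arrays 3 to 5, of slide 4. Arrays 1 and 2 are also those with the smaller Vegfa fall, and the part of these markers in it was not tested.

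**Figure D4:**
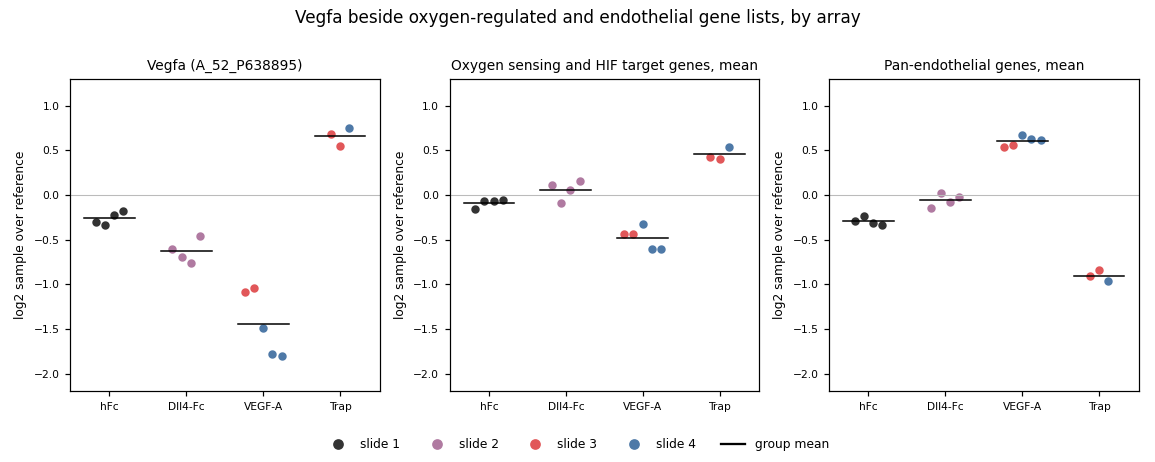
Log2 sample over reference (vertical axis) of Vegfa at its brightest probe (left), and the mean over the 18 oxygen sensing and HIF target genes (middle) and the 13 pan-endothelial genes (right) measured on every array, with a point for each array, coloured by slide. VEGF-A arrays were lowest for Vegfa and the oxygen genes and highest for the endothelial genes, and VEGF Trap arrays lay at the opposite ends.

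The genes whose pattern over the arrays was most like that of 4 members were ranked by Pearson correlation among 14451 genes outside the family. The points share the common reference and the groups, so the values describe the pattern only. For Vegfa (16 arrays) they were Cdh23 (r = 0.95), Ndufa4l2 (0.95) and Pfkl (0.94). For Kdr (16 arrays) they were Cdc14a (0.95), Zfp36l1 (0.94) and Slc1a3 (0.93), a glutamate transporter of the Müller glia list. For Flt1 at its 3′-end probe (13 arrays) they were Cpne2 (0.98), Etv1 (0.97) and Prss23 (0.97), and for Pgf (14 arrays) Oacyl (0.98), Etv4 (0.98) and Vangl1 (0.98).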

How the data were processed

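Total RNA of 16 retinal samples was measured on 2-colour Agilent arrays read with Agilent Feature Extraction 9.5.1.1, per the submitters' processing notes. The deposited scanner output gives a log10 ratio of Cy5 over Cy3 per spot, background-subtracted and dye-normalized per the file headers, beside processed, mean and background intensity columns that the authors' software wrote. The authors' deposited value table holds natural log ratios of the same arrays, which ran with the scanner ratios turned in sign (correlation at least 0.999). The log10 ratio was turned in sign and divided by log10 of 2 to give log2 sample over reference. It was exactly 0 at 100% of spots dim in both channels.

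Outlier-marked spots were left out and a probe was kept where 3 or more arrays had its Cy3 signal well above background (39787 of 43426). Comparisons with hFc could be fitted for 38886 of these. The 4 groups were fitted together with limma 3.58.1 (R 4.3.3), with Benjamini-Hochberg adjustment over all probes and a threshold of 0.05. Gaps between probes of a gene were compared by exact permutation over arrays. The fit was tested on simulated data. Alternatives were normexp (offset 50) with loess, Cy3 alone, median centring, marked spots kept, other filters, separate fits, slide as a block, single slides, the authors' value table and each array left out. The probe gaps and their alternatives were not planned before the data were seen. Members, gene lists and the rule for named genes (all members, up to 4 called genes of a list in a comparison by smallest p, and the 3 genes most like a member) were chosen with earlier results of these data known. Replicate numbers only name arrays.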

Additional observations from a re-analysis of the deposited data

Results flagged for a closer look

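Of 62 groups of 4 or 5 arrays at a probe, 7 held an array far from the others by Dixon's test. For independent, normally spread values chance does so in about 1 in 20 groups. Probes of a gene share arrays, and near background many ratios are exactly 0, so the 7 cannot be set against that rate. At bright probes, Vegfa A_51_P482552 was 0.28 on hFc array 4 against -0.15 to -0.14 on the others, and Vegfb A_51_P458168 was 0.24 on Dll4-Fc array 4 against -0.21 to -0.18. Nrp1 A_66_P107633 was -0.45 on Dll4-Fc array 2 against 0.02 to 0.09, and 0.78 on VEGF-A array 5 against 0.53 to 0.56. At probes near background, Flt1 A_52_P520859 was -0.31 on Dll4-Fc array 1 against 0 on the others. Nrp2 A_51_P473024 was -0.30 on hFc array 4 against 0 to 0.02, and -1.3 on Dll4-Fc array 1 against -0.38 to -0.22.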

How the results depend on the processing

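No paired analysis was possible because replicate numbers were given in accession order and pair no samples. A code in the titles, whose meaning is not stated, is shared by VEGF-A array 4 and VEGF Trap array 3, a lone pair that allows no block. Of 608 alternative values of the called member results, 562 kept their direction and call, 46 kept the direction but lost the call and 0 reversed. Of 1081 values of uncalled results, 27 were called. Dll4-Fc against hFc called 1 member probe with normexp and loess, Kdr A_66_P100674. It also called 1 with the authors' value table and with marked spots kept, Flt1 A_51_P398723 each time. With an array left out it called 0 to 4 (4 without Dll4-Fc array 4 and 1 without hFc array 1). VEGF Trap against hFc called 2503 probes of the whole array with normexp and loess, 388 with Cy3 alone, 554 in a fit of the 2 groups, 539 with hFc arrays 1 and 2 averaged (their titles share a code), 469 with slide 3 alone, 180 with slide 4 alone and 259 to 933 with an array left out, against 1046. It fell over 1.5 times without each hFc array (651, 426, 442 and 607 without arrays 1 to 4), without VEGF Trap array 1 (259) and without array 3 (469). Its member probes numbered 1 with the hFc arrays averaged and with slide 3 alone, 0 with slide 4 alone and 0 to 3 with an array left out (0 without VEGF Trap array 1, 3 without array 2). VEGF-A against VEGF Trap called 4204 probes within slide 3 and 4198 within slide 4, against 6714, and 4173 to 6610 with an array left out, the lowest being without VEGF Trap array 1 and the next, 4426, without array 3. Its member probes numbered 10 within slide 4 and 13 to 17 with an array left out. With an array left out, VEGF-A against hFc ranged from 2654 to 3593 probes and 10 to 12 member probes, and Dll4-Fc against hFc from 1246 to 1479 probes. Under the other alternatives these were 2740 to 4549 probes and 10 to 13 member probes, and 1156 to 1725 probes. These counts rest on fewer arrays than the full fit wherever a slide or an array was left out, and the cause of the other shifts was not tested. The Flt1 probe gap ranged from 1.69 to 1.87 (VEGF-A over VEGF Trap) and from 0.77 to 0.94 (over Dll4-Fc) with an array left out, and its VEGF-A difference from hFc with marked spots kept was 1.39 (exact permutation p = 0.00794, adjusted 0.0595). The number of arrays limits the precision, and probes near background have no usable ratio.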
